A study of Homo sapiens with 10 samples.

Results

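The response of PR-A K388R breast cancer cells to R5020 is described here from 4 of the 10 arrays of the study: 2 arrays of PR-A K388R cells treated with R5020, a synthetic progestin, and 2 arrays of the same cells given vehicle. The 4 arrays were chosen by their labels, and every probe set with 1 gene symbol was compared, 12547 probe sets of 8904 genes. R5020 was given at 10 nM for 24 h and the vehicle was ethanol. PR-A K388R cells carry a stably expressed human progesterone receptor A isoform in which the lysine that accepts the SUMO protein is replaced by arginine. They were derived from T47D-Y, a clone of the T47D luminal breast cancer line that has lost its own progesterone receptors, so PR-B is absent and the transfected receptor is the PR that these cells hold. The other groups of the study were WT PR-A cells, which carry the unmutated receptor in the same T47D-Y background, with R5020 or vehicle, and T47D-Y cells with vehicle, 2 arrays each. T47D-Y cells with R5020 were not analysed here. Each receptor is thus represented by 1 transfected line.

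Progesterone receptors are ligand-activated transcription factors. After binding a progestin such as R5020 they leave their chaperones, dimerise and bind hormone response elements in DNA, where they raise or lower transcription. SUMOylation is the covalent attachment of a small ubiquitin-like protein to a lysine; on the N-terminal lysine of PR-A it is known to restrain transcription from promoters with several response elements, and the arginine of K388R cannot be modified.

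All groups were hybridised to Affymetrix U133 Plus 2 arrays, and the values are log2 signals normalized by the authors. Array medians of the 10 arrays lay between 4.59 and 4.69, and the 2 arrays of a group of PR-A K388R cells correlated across probe sets with Pearson's r of 0.996 for R5020 and 0.996 for vehicle, against 0.993 between treatments. Probe sets of 1 array are not independent replicates, so these r values only describe the arrays. The labels number the replicates 1 and 2 but do not say that they were separate cultures, so the p-values measure the spread between these samples, which may be technical. The table used holds part of the array, without a probe set for PGR, so the receptor transcript could not be used to check the labels. Luminal breast markers gave high signals in the PR-A K388R arrays (mean log2 signal of 10 markers 10.3 and 10.2 with R5020, 10.5 and 10.4 with vehicle). Markers of leukocytes (5 measured, 3.97 to 4.08), endothelium (5, 3.82 to 3.93), fibroblasts (7, 4.46 to 4.69) and adipocytes (2, 4.61 to 4.76) lay near or below the array medians. Basal markers (5 measured) had mean signals of 6.56 and 6.45 with R5020 and 6.22 and 6.24 with vehicle. The calls among markers were the fall of the fibroblast gene COL1A1 and the rise of the basal marker EGFR, both described below. The part of such markers in any result was not tested.

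R5020 changed a small share of the transcripts of PR-A K388R cells, and the rises were more numerous and larger than the falls. With calls made in limma where the fold reached 1.5 and p, after adjustment by Benjamini-Hochberg, was below 0.05, 149 probe sets of 131 genes were raised (1.19% of those tested) and 55 of 47 genes were lowered (0.438%), 204 in all (1.63%). The raised probe sets had a median change of 0.94 on the log2 scale, 66 rose at least 2-fold and 15 at least 4-fold. The lowered ones had a median of -0.85, 13 fell at least 2-fold and 0 fell 4-fold. Over all probe sets the median change was 0.01 and the median standard error (SE) of a change was 0.13. Both R5020 arrays lay above both vehicle arrays in all 149 raised probe sets, where 23.8% of all probe sets did so, and below both in all 55 lowered ones, where 19.6% did. In bulk RNA, fewer cells of a kind and less RNA per cell cannot be told apart. With 2 arrays a group the counts rested on each array of PR-A K388R cells: without R5020 replicate 1 or 2, 39 and 63 probe sets were raised and 9 and 11 lowered, and without vehicle replicate 1 or 2, 51 and 47 were raised and 10 and 23 lowered. The count of lowered probe sets also moved to 27 without either WT PR-A vehicle array and to 34 without either T47D-Y array, which enter through the shared variance. Contrasts of an analysis of variance without moderation, on 4 residual degrees of freedom, left 2 raised and 0 lowered.

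**Figure D1:**
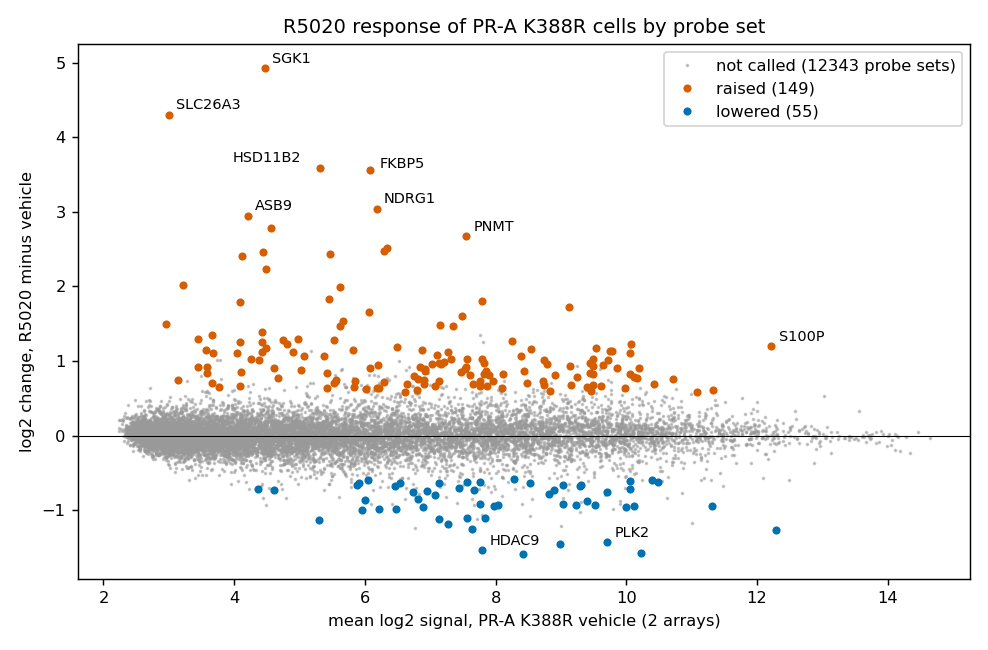
Log2 change with R5020 (R5020 minus vehicle, vertical axis) against the mean log2 signal of the 2 vehicle arrays (horizontal axis) for the 12547 probe sets of PR-A K388R cells, with called rises in orange and called falls in blue. The 149 rises reach 4.92 and the 55 falls reach -1.59, and calls of both kinds are spread over most of the signal range.

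The 5 largest rises were those of SGK1, SLC26A3, HSD11B2, FKBP5 and NDRG1. SGK1, a kinase that keeps sodium channels at the cell surface and a textbook target of glucocorticoids and progestins, had log2 signals of 9.68 and 9.12 with R5020 and 4.61 and 4.34 with vehicle. That was a rise of 4.92 ± 0.27 (log2 ± SE, n = 2 arrays a group here and below) or 30.4-fold, with an adjusted p of 7.03e-05. T47D-Y cells with vehicle, at 6.50 and 6.57, lay between both groups and above both vehicle arrays of PR-A K388R cells, a difference that was not tested. SLC26A3, a chloride and bicarbonate exchanger of epithelia, had 7.85 and 6.75 with R5020 and 2.98 and 3.01 with vehicle, a rise of 4.30 ± 0.34 (adjusted p = 0.000454). Its vehicle signals lay below the lower quartile of those arrays, and its 2 R5020 arrays differed by more than 1 log2 unit. HSD11B2, the enzyme that inactivates cortisol to cortisone, had 9.44 and 8.36 against 5.33 and 5.29 (3.59 ± 0.32, adjusted p = 0.000742). FKBP5, an HSP90 co-chaperone that lowers the hormone affinity of steroid receptors, was the most even of the large rises, with 9.66 and 9.62 in R5020 arrays and 6.04 and 6.12 in vehicle arrays (3.56 ± 0.11, adjusted p = 5.49e-07). FKBP5 kept its call in all 17 alternative analyses. NDRG1, a gene known for its response to hypoxia and cell stress, had 9.51 and 8.94 with R5020 and 6.28 and 6.08 with vehicle (3.04 ± 0.23, adjusted p = 0.000415). The study reports NDRG1 as enhanced only in the mutant cells. It was also raised in WT PR-A cells, by 1.48 ± 0.23 (adjusted p = 0.00303). The difference between the 2 responses, 1.56 ± 0.33, was not called (adjusted p = 0.0516).

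The next 10 rises joined metabolic enzymes, a transcription factor and secreted proteins. ASB9, a substrate adaptor of cullin ubiquitin ligases, had 7.28 and 7.03 with R5020 and 4.35 and 4.06 with vehicle, a rise of 2.95 ± 0.17 (adjusted p = 7.11e-05). KLF9, a Kruppel-like factor induced by several steroid hormones, rose by 2.78 ± 0.21 and 1.83 ± 0.27 on 2 of its 3 probe sets (adjusted p = 0.000415 and 0.0116) and changed by 0.20 on the other. Both enzymes of the catecholamine pathway that were called rose together: PNMT, which makes adrenaline from noradrenaline, had 10.48 and 9.97 against 7.78 and 7.32 (2.68 ± 0.23), and DDC, which makes dopamine and serotonin, had 7.08 and 6.72 against 4.57 and 4.33 (2.46 ± 0.17). ABLIM3, an actin-binding LIM protein, rose by 2.51 ± 0.26, SERPINA3, the protease inhibitor alpha-1-antichymotrypsin, by 2.48 ± 0.24, and FMO5, a flavin-containing monooxygenase, by 2.43 ± 0.20 on 1 of its 2 probe sets (0.06 on the other). THBS1, the matrix protein thrombospondin, rose by 2.41 ± 0.33 (adjusted p = 0.00819), and its brightest probe set had 6.51 and 6.94 with R5020 and 4.18 and 4.81 with vehicle (2.23 ± 0.38, adjusted p = 0.0227). The T47D-Y arrays, at 7.53 and 6.19 on that probe set, lay closer to the R5020 arrays than to the vehicle arrays. THBS1 was called on 2 of its 4 probe sets, of which the least changed by 0.50. CPM, a membrane carboxypeptidase, rose by 2.01 ± 0.40 (adjusted p = 0.0434) and PRKAB2, a regulatory subunit of the AMP-activated kinase, by 2.00 ± 0.15 (adjusted p = 0.000415). Of these 15 genes, THBS1 and CPM lost their calls when single arrays were left out, both without PR-A K388R R5020 replicate 2 or either vehicle array and CPM also without R5020 replicate 1 or either WT PR-A vehicle array. Their changes stayed within 2.00 to 2.82 and 1.81 to 2.22, and the other 13 genes kept their calls without any single array.

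**Figure D2:**
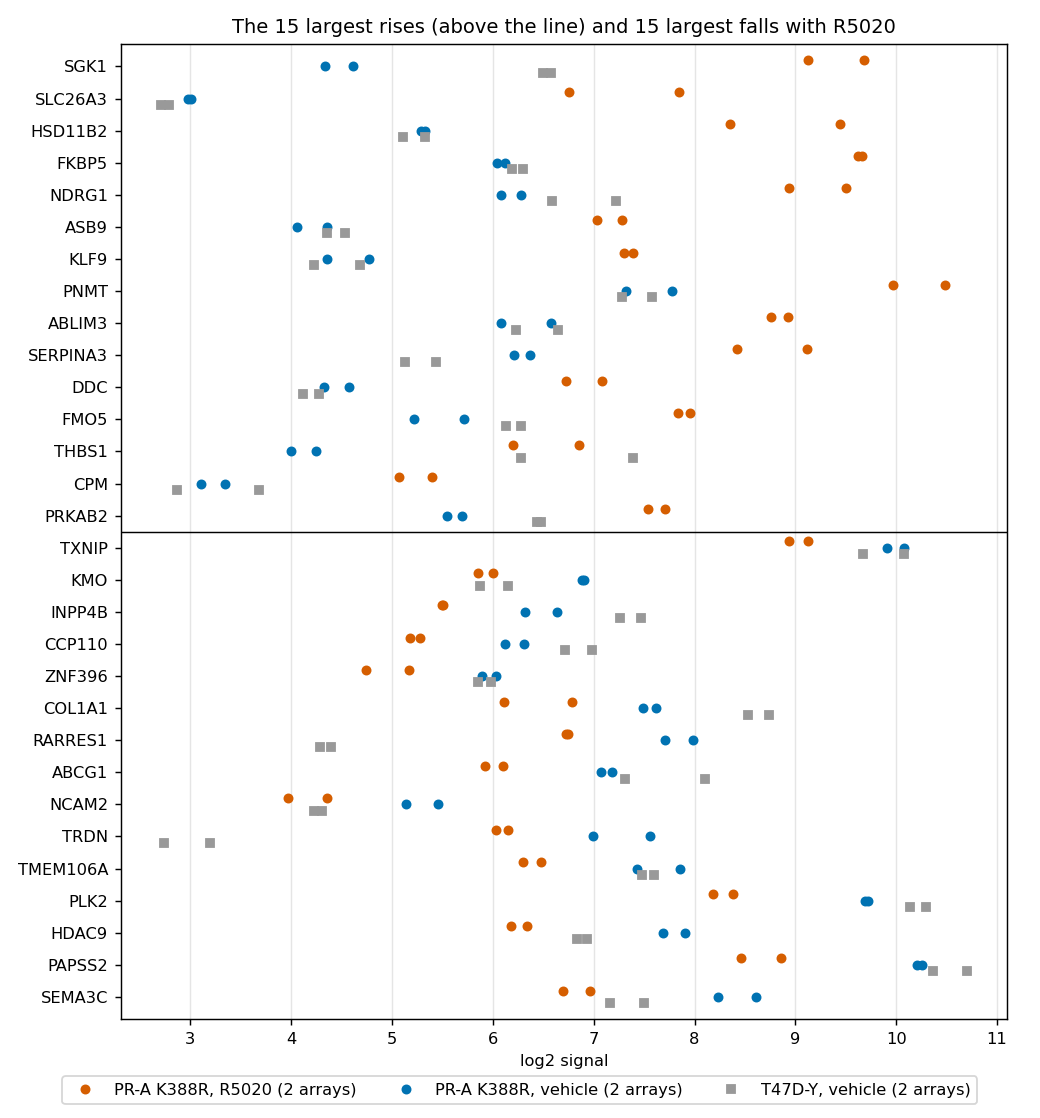
Log2 signal (horizontal axis) of each array for the 15 genes with the largest rises (above the line) and the 15 with the largest falls (below it), 1 point per array. Orange points (PR-A K388R, R5020) and blue points (PR-A K388R, vehicle) do not overlap for any of the 30 genes, while grey squares (T47D-Y, vehicle) lie beside the vehicle points for FKBP5 and PNMT, between both for SGK1 and far below both for TRDN.

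Promoter sequence of the raised genes was read for letters of the hormone response element, because these genes moved together with a hormone whose receptor binds DNA. The element bound by progesterone and glucocorticoid receptors is an inverted repeat whose arms read AGAACA and TGTTCT on either strand, written whole as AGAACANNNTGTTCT, which is its own reverse complement. RefSeq windows (GRCh38.p14) from 250 bases before to 50 bases after the most upstream start were held for 108 of the 131 raised genes (82.4%). An exact arm on either strand was in 12 of these 108 (11.1%), against 11.1% of the 6906 measured genes with a window and 14.8% of all 27305 windows. The whole element with at most 2 mismatches in its 12 fixed letters, which can overlap an arm, was in 2 of the 108 (1.85%), against 0.825% of measured genes and 1.43% of all windows. Of the 47 lowered genes 37 had a window (78.7%), too few for a share. The 2 raised genes with the element were ASB9 and SERPINA3, shown with FKBP5, which holds a single arm. A match is a description of letters and not a binding site. Capitals mark the element or the arms.
ASB9 promoter, chrX:15270418-15270717, minus strand: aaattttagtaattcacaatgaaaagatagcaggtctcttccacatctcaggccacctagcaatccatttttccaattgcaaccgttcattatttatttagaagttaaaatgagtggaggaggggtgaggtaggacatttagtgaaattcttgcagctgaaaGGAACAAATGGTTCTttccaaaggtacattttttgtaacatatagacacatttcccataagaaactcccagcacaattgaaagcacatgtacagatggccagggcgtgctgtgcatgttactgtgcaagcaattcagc
SERPINA3 promoter, chr14:94612141-94612440, plus strand: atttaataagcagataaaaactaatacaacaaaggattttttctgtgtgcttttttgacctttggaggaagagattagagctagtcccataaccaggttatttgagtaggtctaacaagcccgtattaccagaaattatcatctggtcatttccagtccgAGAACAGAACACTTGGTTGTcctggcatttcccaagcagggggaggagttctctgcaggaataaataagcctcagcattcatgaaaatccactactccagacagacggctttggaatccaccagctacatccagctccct
FKBP5 promoter, chr6:35728534-35728833, minus strand: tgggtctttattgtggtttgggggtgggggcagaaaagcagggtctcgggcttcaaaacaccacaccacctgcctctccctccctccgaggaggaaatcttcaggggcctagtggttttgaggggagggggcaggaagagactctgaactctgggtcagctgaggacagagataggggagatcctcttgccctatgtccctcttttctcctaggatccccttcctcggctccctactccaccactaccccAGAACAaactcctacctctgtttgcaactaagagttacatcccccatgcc
In ASB9 the element reads GGAACAAATGGTTCT, with its first base at position -88 from the start. In SERPINA3 it reads AGAACACTTGGTTGT, with its first base at -85, and overlaps a second AGAACA just upstream. ASB9 rose in PR-A K388R cells and was not called in WT PR-A cells, while SERPINA3 and FKBP5 were called in both lines.

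The falls were smaller and covered signalling, sulfation and matrix genes. SEMA3C, a secreted guidance protein, had 6.96 and 6.70 with R5020 and 8.61 and 8.24 with vehicle on the probe set with the largest fall of all (-1.59 ± 0.23, adjusted p = 0.0105). Its brighter probe set had 11.05 and 10.98 against 12.35 and 12.22 (-1.27 ± 0.15, adjusted p = 0.00352). PAPSS2, which makes the sulfate donor used by sulfotransferases, had 8.46 and 8.85 against 10.26 and 10.20 (-1.57 ± 0.17, adjusted p = 0.00227). HDAC9, a class II histone deacetylase, had 6.18 and 6.34 with R5020 and 7.90 and 7.69 with vehicle (-1.54 ± 0.13, adjusted p = 0.000644). Its other 2 probe sets changed by 0.07 and -0.29 and were not called, so the fall of HDAC9 was seen on 1 of 3 probe sets. PLK2, a polo-like kinase of the stress response, had 8.18 and 8.38 against 9.72 and 9.69 (-1.43 ± 0.14, adjusted p = 0.00111). These 4 genes kept a called probe set without any single array. TXNIP, the inhibitor of thioredoxin that also limits glucose uptake, fell by 0.96 ± 0.16, INPP4B, a phosphoinositide phosphatase, by 0.98 ± 0.15, and ABCG1, a cholesterol exporter, by 1.12 ± 0.23. INPP4B was called on 1 of its 2 probe sets and changed by -0.21 on the other. RARRES1, a retinoid-responsive gene, fell by 1.11 ± 0.14, TRDN, the calcium-release protein triadin, by 1.18 ± 0.21, and COL1A1, a chain of fibrillar collagen, by 1.11 ± 0.22 on 1 of its 4 probe sets. TRDN and RARRES1 had T47D-Y signals of 2.73 and 3.19 and of 4.40 and 4.29, below both treatments of PR-A K388R cells. The remaining genes among the 15 largest falls included TMEM106A (-1.26), NCAM2 (-1.13) and the zinc finger gene ZNF396 (2.01-fold lower). ZNF396 was called on 1 of its 5 probe sets, of which the least changed by -0.08. Last came the centriole protein gene CCP110 (-0.98 on 1 of 2 probe sets, 0.04 on the other) and KMO (-0.96), an enzyme of tryptophan breakdown. The calls of these 11 genes were each lost without at least 3 of the 4 PR-A K388R arrays taken singly, at changes between -1.54 and -0.68, and those of TRDN, COL1A1, ABCG1, NCAM2 and ZNF396 were also lost without arrays of WT PR-A or T47D-Y cells.

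Agreement between probe sets of the same gene bears on how far a single call can be read. Of the 177 called genes, 88 had several probe sets. All probe sets changed with the same sign in 70 of these 88 genes and were all called the same way in 13. The share over all genes with several probe sets was not computed, and these 88 were chosen by a called probe set. The counts therefore only describe them. ERVK13-1, an endogenous retroviral locus whose sequence other copies can share, was the 1 symbol with probe sets called both ways, at 0.74 and -0.66. ULK2, a kinase that starts autophagy, was raised on 3 probe sets by 1.53, 1.29 and 1.07, and LOC285847, an uncharacterised noncoding transcript that RefSeq places across the start of FKBP5 on chromosome 6, was raised by 0.65 on 1 of 3 probe sets. Overlapping genes of this kind may share signal, so the rise of LOC285847 is uncertain.

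Known progestin and glucocorticoid targets rose in many members. Of 22 measured targets 11 were raised and 0 lowered, with 18 changes above 0 and a median of 0.77, where the median over 8904 genes, with 1 probe set for each gene, was 0.01 and 1.25% were raised and 0.416% lowered. The list was chosen with these data known, and the study itself singled out its members SGK1 and PDK4 on these samples, so its count is not independent evidence of its direction. Besides SGK1, HSD11B2, FKBP5 and KLF9, F3, the tissue factor that starts coagulation, rose by 1.66 ± 0.23 (7.95 and 7.50 with R5020, 6.20 and 5.93 with vehicle). LIFR, the receptor of leukemia inhibitory factor, rose 2.82-fold, with 4.47 and 4.44 against 2.84 and 3.07. PDK4, which blocks entry of pyruvate into the citrate cycle, rose by 1.34 ± 0.27 on 1 of its 2 probe sets (0.30 on the other). The calcium-binding protein gene S100P rose by 1.20 ± 0.17. STAT5A rose by 0.96 ± 0.12, the repressor gene BCL6 by 0.84 ± 0.11 and ZBTB16, another zinc finger repressor, by 0.70 ± 0.12. Targets that were not called included DDIT4 (1.19, adjusted p = 0.116), NEDD9 (0.67, adjusted p = 0.325), CEBPD (0.60, adjusted p = 0.126) and DUSP1 (0.46, adjusted p = 0.263), and the values of HSD17B2, EDN1, WNT4 and MAOA were between -0.17 and -0.02. The calls of PDK4 and S100P were lost without single arrays, PDK4 without any 1 of the 4 PR-A K388R arrays, or either vehicle array of WT PR-A or T47D-Y cells, with changes between 1.11 and 1.58, and S100P without R5020 replicate 1 or vehicle replicate 2, with changes between 1.01 and 1.39.

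**Figure D3:**
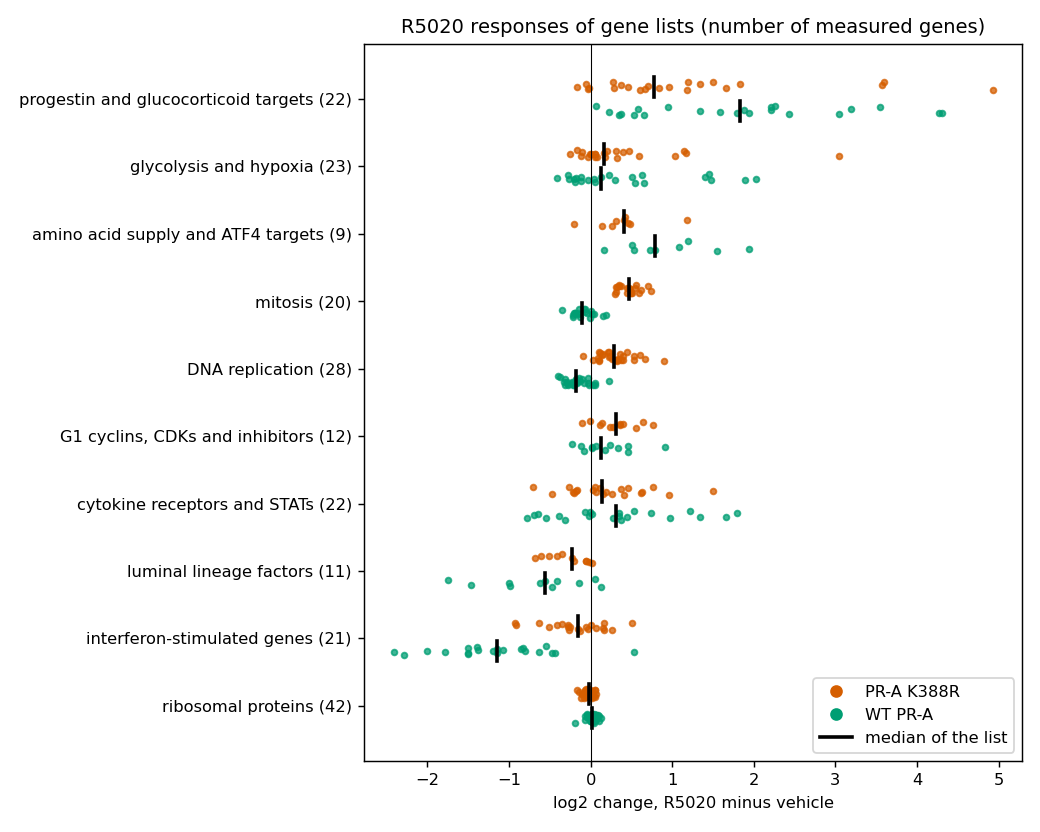
Log2 change with R5020 (R5020 minus vehicle, horizontal axis) of each measured gene in 10 gene lists, 1 point per gene with the probe set of the highest mean, orange for PR-A K388R cells and green for WT PR-A cells, with the list median as a black bar. Progestin and glucocorticoid targets have medians of 0.77 in PR-A K388R and 1.83 in WT PR-A cells, and all 20 mitosis genes lie above 0 in PR-A K388R cells, where ribosomal proteins lie close to 0 in both lines.

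A few genes of the cell division cycle rose by small amounts with R5020 in PR-A K388R cells, and most did not pass the test. Of 20 measured mitosis genes 2 were raised, and all 20 values lay above 0, with a median of 0.47 and a range of 0.30 to 0.74. Over all 8904 genes 1.25% were raised and 4601 values lay above 0. NDC80, which ties spindle fibres to kinetochores, had 9.44 and 9.49 with R5020 and 8.71 and 8.76 with vehicle (0.74 ± 0.12, adjusted p = 0.0149). PLK1, the main polo-like kinase of mitosis, had 9.10 and 9.28 against 8.43 and 8.54 (0.71 ± 0.12, adjusted p = 0.0253). CDK1, the kinase that drives entry into mitosis, rose by 0.79 ± 0.11 on its less bright probe set (10.90 and 10.93 with R5020, 10.10 and 10.15 with vehicle, adjusted p = 0.00838) and changed by 0.48 (adjusted p = 0.101) on the other. Among 28 DNA replication genes 2 were raised, and 27 values lay above 0, with a median of 0.28. RRM2, the small subunit of ribonucleotide reductase, had 11.03 and 11.16 against 10.23 and 10.17 (0.90 ± 0.14, adjusted p = 0.0131), and CDC45, part of the replicative helicase, rose by 0.67 ± 0.13 (adjusted p = 0.0393). Of 12 G1 regulators 2 were raised, CCND3, a D-type cyclin, by 0.77 ± 0.12 on 1 of its 2 probe sets (-0.10 on the other) and E2F1, the S-phase transcription factor, by 0.64 ± 0.13. The mean mitosis signal of PR-A K388R cells was 9.86 and 9.91 with R5020 and 9.37 and 9.45 with vehicle, and the T47D-Y arrays, at 9.74 and 9.65, lay between. In WT PR-A cells 0 mitosis and 0 replication genes were called in either direction, with medians of -0.11 and -0.18. Over all probe sets 4.26% were raised and 3.22% lowered in those cells. The difference of the responses was called for NDC80 (0.87, adjusted p = 0.0363), RRM2 (0.98, adjusted p = 0.0431) and CDK1 on its less bright probe set (0.83, adjusted p = 0.0336), but not for PLK1 (0.79, adjusted p = 0.0643). The PR-A K388R calls of NDC80, PLK1, RRM2, CDC45, CCND3 and E2F1 were each lost without any 1 of the 4 PR-A K388R arrays, while the changes of NDC80, PLK1 and RRM2 stayed within 0.66 to 0.77, 0.60 to 0.82 and 0.82 to 0.98, and the calls of CDC45 and E2F1 were lost under quantile normalization as well.

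**Figure D4:**
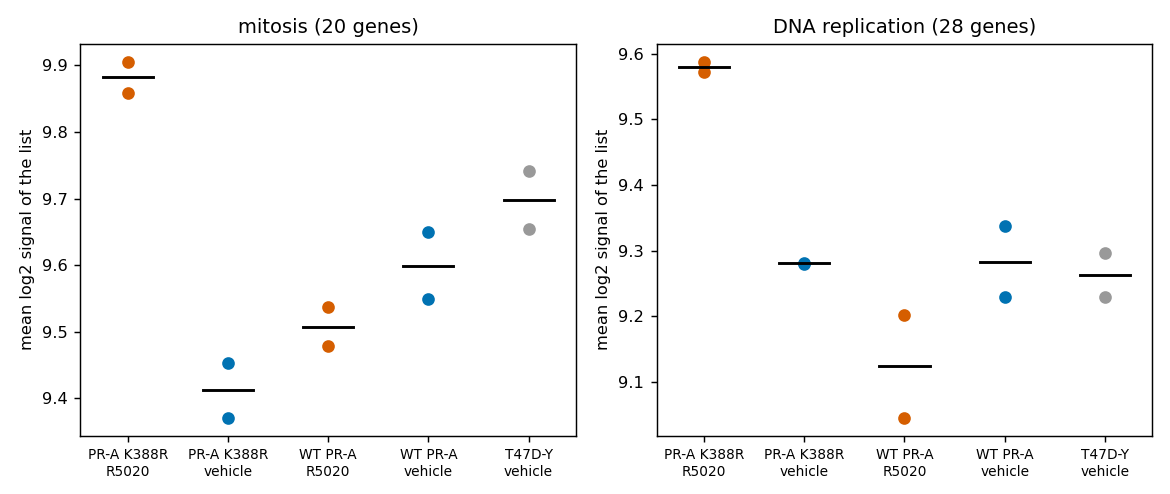
Mean log2 signal (vertical axis) of 20 mitosis genes (left) and 28 DNA replication genes (right) in each of the 10 arrays, 1 point per array, with a black line at the mean of the 2 arrays of a group; the axes do not start at 0. The 2 PR-A K388R arrays with R5020 are the highest of the 10 on both panels (9.86 and 9.91 for mitosis, 9.57 and 9.59 for replication).

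Transport and hormone metabolism genes held some of the largest single changes and few calls, to be read against 1.25% raised and 0.416% lowered over all genes. Of 14 measured genes of sodium and ion transport linked to SGK1, 3 were raised, with a median of 0.48. Besides SGK1 and SLC26A3 these included STK39, a kinase that acts on chloride cotransporters, which had 7.95 and 8.26 with R5020 and 7.11 and 7.15 with vehicle (0.97 ± 0.14, adjusted p = 0.0102). SCNN1B, a subunit of the epithelial sodium channel, had 9.42 and 8.70 against 8.03 and 7.58, a change of 1.25 that was not called (adjusted p = 0.0613). FXYD3, a regulator of the sodium pump, rose by 0.68 on 1 probe set and changed by 0.16 on its brighter one. Among 152 solute carriers 2 were raised and 1 lowered, which is near the share over all genes. Of 30 genes of steroid, catecholamine, retinoid and sulfate metabolism, HSD11B2, PNMT and DDC rose, and PAPSS2 and STS fell. STS, which frees steroids from their sulfates, had 9.32 and 9.04 against 10.16 and 10.07 (-0.94 ± 0.15, adjusted p = 0.0186). CYP27A1, the sterol 27-hydroxylase of bile acid synthesis, had 9.77 and 9.43 against 7.72 and 7.87 (1.81 ± 0.16, adjusted p = 0.000664), and it was the 1 of 25 cytochrome P450 genes raised on the list probe sets. The hypoxia and glycolysis list, which holds NDRG1 that the study names, had 3 of 23 raised: NDRG1, the enolase gene ENO2 (1.17 ± 0.16) and the collagen prolyl hydroxylase gene P4HA2 (1.03 ± 0.15). P4HA2 was called on 2 of its 3 probe sets, of which the least changed by 0.16. The glycolytic genes ALDOA (0.33), LDHA (0.01) and PGK1 (-0.25) were not called.

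Among growth factor and cytokine receptor genes EGFR and LIFR had the largest rises. EGFR, the receptor of epidermal growth factor, had 8.76 and 8.89 with R5020 and 7.46 and 7.25 with vehicle (1.47 ± 0.13, adjusted p = 0.000644). Another of its 4 probe sets rose by 0.80 (adjusted p = 0.0338), and the other 2 changed by -0.09 and -0.06. Its ligands EGF and TGFA rose by 0.91 ± 0.16 and 0.74 ± 0.15, TGFA on 1 of its 2 probe sets (0.22 on the other). In the same list of 18 genes, 3 were raised and 1 lowered, where 1.25% of all genes were raised and 0.416% lowered. PIK3R3, a regulatory subunit of phosphoinositide 3-kinase, fell by 0.61 ± 0.11, and the median was -0.01. Of 22 cytokine receptor and STAT genes LIFR, STAT5A and JAK2 rose and IFNGR2, a chain of the interferon-gamma receptor, fell by 0.71 ± 0.13. JAK2, the kinase that phosphorylates STAT5 at several cytokine receptors, had 6.07 and 6.05 against 5.41 and 5.45 (0.63 ± 0.12, adjusted p = 0.0336). That call was on 1 of its 3 probe sets, of which the least changed by 0.10. EGFR and LIFR kept their calls without any single array, while those of EGF, TGFA, PIK3R3, JAK2 and IFNGR2 were lost without any 1 of the PR-A K388R arrays, at changes between 0.56 and 1.07 for the rises and between -0.79 and -0.58 for the falls.

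The following lists held no call in PR-A K388R cells. With 1.25% of all genes raised and 0.416% lowered, a list of this size without a call is near the overall share and no result about the list. Of 11 luminal lineage factors 0 were called and 10 changed below 0, with a median of -0.23. FOXA1, the pioneer factor of luminal cells, changed by -0.61 (adjusted p = 0.0698) and ESR1, the estrogen receptor, by -0.41 (adjusted p = 0.47). Of 9 genes of amino acid supply and the ATF4 response 0 were called, with a median of 0.41. In WT PR-A cells, where 4.26% of all probe sets were raised, 6 of the 9 were raised, with a median of 0.79. The difference of the responses was called for 1 of the 9, and the list as a whole was not tested. The 4 metallothioneins, which bind zinc and copper, changed by 0.10 to 0.35 and were not called, where MT1X and MT1H rose by 1.92 and 1.90 in WT PR-A cells. The difference of the responses was called for both, at -1.57 and -1.80 (adjusted p = 0.00704 and 0.00463). Among 21 interferon-stimulated genes 0 were called, with a median of -0.16, and the 42 ribosomal protein genes had a median of -0.02 and a range of -0.16 to 0.06. Of 9 SUMO pathway genes 0 were called, with a median of 0.05, among them the protease gene SENP1 (0.14), the activating enzyme gene SAE1 (0.31) and SUMO3 (-0.06).

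The question of the mutation is whether genes respond differently to R5020 when PR-A cannot be SUMOylated at that lysine. Each receptor is held by 1 transfected line, so the mutation and other differences between the lines cannot be told apart. WT PR-A cells had 534 probe sets raised (4.26%) and 404 lowered (3.22%) in the same model, from arrays that the PR-A K388R response does not share. Of the 149 raised in PR-A K388R cells, 94 (63.1%) were raised in WT PR-A cells, which is 17.6% of the WT PR-A rises, 53 were not called and 2 were lowered. Of the 55 lowered, 39 (70.9%) were lowered in WT PR-A cells, 9.65% of the falls there. The difference, taken as the PR-A K388R response less the WT PR-A response, was called positive for 0.598% and negative for 1.11% of all probe sets (1.71% in all). The difference reuses the PR-A K388R arrays by which the raised and lowered probe sets were called. Its counts among them are therefore a description and no independent support. Among the 149 raised probe sets the difference was positive for 13 and negative for 15, and 121 were not called different. Among the 55 lowered ones it was positive for 4 and negative for 1. Thus SGK1, FKBP5, HSD11B2, KLF9 and PRKAB2 had differences of 0.62 ± 0.38, 0.02 ± 0.15, -0.67 ± 0.46, -0.32 ± 0.30 and 0.01 ± 0.21 (± SE), with adjusted p between 0.613 and 0.996. With 2 arrays a group, differences of several SE could go uncalled, as for NDRG1 (1.56 ± 0.33, adjusted p = 0.0516). The genes without a called difference are therefore not shown to respond alike. The 33 differing calls became 4 and 11 without R5020 replicate 1 or 2 of PR-A K388R cells, 5 and 8 without its vehicle replicate 1 or 2, 10 without either WT PR-A vehicle array and 18 without either T47D-Y array.

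Genes that responded more in PR-A K388R cells were led by ASB9. In WT PR-A cells ASB9 had 5.63 and 6.03 with R5020 and 5.55 and 5.51 with vehicle, so the vehicle signal was higher there than in PR-A K388R cells and the response was 0.30. The difference of 2.65 ± 0.24 (adjusted p = 0.00197) kept its call without any single array. SLC26A3 had 4.43 and 5.32 with R5020 and 2.94 and 3.03 with vehicle in WT PR-A cells, a smaller rise than in PR-A K388R cells by 2.41 ± 0.48 (adjusted p = 0.0455), a call that was lost in 8 of the 10 analyses without 1 array. PRKAR2B, the regulatory subunit RII-beta of protein kinase A, moved in opposite directions: 8.48 and 8.31 with R5020 and 7.03 and 7.53 with vehicle in PR-A K388R cells, but 8.98 and 9.03 with R5020 and 10.02 and 9.95 with vehicle in WT PR-A cells. The response was 1.12 in PR-A K388R cells and -0.98 in WT PR-A cells, and the difference of 2.10 ± 0.25 had an adjusted p of 0.00568. F8, coagulation factor VIII, was the other gene with opposite calls, at 0.74 in PR-A K388R cells and -0.62 in WT PR-A cells (difference 1.36 ± 0.17, adjusted p = 0.00704). For both, R5020 left the WT PR-A cells with the higher signal, since their vehicle arrays were already higher. NGFR, the low-affinity neurotrophin receptor, PGC, a pepsinogen, and KIAA0513 rose by 1.15, 1.29 and 0.86 in PR-A K388R cells and had -0.14, -0.02 and -0.54 in WT PR-A cells (adjusted p of the differences 0.0224, 0.0488 and 0.00704). The fall of KIAA0513 in WT PR-A cells had an adjusted p of 0.0244 and, at 1.45-fold, missed only the fold threshold. KIAA0513 had vehicle signals of 8.10 and 8.04 there, against 6.81 and 7.04 in PR-A K388R cells. On their other probe sets PGC and KIAA0513 changed by 0.81 and 0.27 in PR-A K388R cells. RAPGEF5, an activator of Rap GTPases, rose by 0.94 on 1 of its 4 probe sets (lowest -0.004), against -0.13 in WT PR-A cells (difference 1.08 ± 0.22, adjusted p = 0.0475). Together with RRM2, NDC80, CDK1, FXYD3, BATF and ASB9, and with CYP1B1 among the falls, these are the genes called in PR-A K388R cells, not called in WT PR-A cells and called for the difference. Their PR-A K388R calls and their differences rest on the same PR-A K388R arrays. BATF, an AP-1 family factor, rose by 0.82 (9.78 and 9.68 with R5020, 8.91 and 8.91 with vehicle) and had -0.26 in WT PR-A cells. The differences of PRKAR2B, F8 and KIAA0513 were called without any single array, though the rise of F8 in PR-A K388R cells lost its call without any 1 of their 4 arrays and that of PRKAR2B without either R5020 array or vehicle replicate 1. The differences of NGFR, PGC, RAPGEF5, RRM2 and NDC80 were lost in most analyses without 1 array.

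Other called genes responded less in PR-A K388R cells. TRAF5, an adaptor of tumor necrosis factor receptors, had 4.66 and 4.83 with R5020 and 4.10 and 4.07 with vehicle in PR-A K388R cells, and 7.94 and 7.87 with R5020 and 5.05 and 5.03 with vehicle in WT PR-A cells. The difference was -2.20 ± 0.16 (adjusted p = 0.00168). The other TRAF5 probe set changed by 0.03 in PR-A K388R cells. S100P was bright throughout, at 13.57 and 13.26 with R5020 and 12.33 and 12.11 with vehicle in PR-A K388R cells, while WT PR-A cells had 13.41 and 13.62 with R5020 and 10.28 and 10.67 with vehicle (difference -1.84 ± 0.24, adjusted p = 0.00723). Its R5020 arrays thus reached a like signal in both lines, and the vehicle arrays differed. The myelin protein gene PLLP rose by 0.89 in PR-A K388R cells and 2.62 in WT PR-A cells (difference -1.74 ± 0.23, adjusted p = 0.00723). The proteoglycan gene SRGN rose by 1.11 in PR-A K388R cells and 2.91 in WT PR-A cells (difference -1.80 ± 0.32, adjusted p = 0.0277). Its vehicle signals were low in PR-A K388R cells, at 4.20 and 3.88, against 8.61 and 8.81 in WT PR-A cells. The part of this gap in the difference was not tested. In PR-A K388R cells SRGN was called on 2 of its 3 probe sets and changed by -0.18 on the other. GREB1, an estrogen receptor cofactor, rose by 1.26 in PR-A K388R cells and 2.79 in WT PR-A cells (difference -1.53 ± 0.27, adjusted p = 0.0277). DPYSL2, a microtubule-binding protein, rose by 1.01 in PR-A K388R cells and 2.63 in WT PR-A cells (difference -1.62 ± 0.24, adjusted p = 0.0136). On 1 of its 2 probe sets PDK4 rose by 1.34 in PR-A K388R cells and 3.18 in WT PR-A cells. Its difference of -1.84 ± 0.38 (adjusted p = 0.0492) was lost in 9 of the 10 analyses without 1 array. Of the lowered genes, HDAC9 fell by 1.54 in PR-A K388R cells and by 2.92 in WT PR-A cells (difference 1.39 ± 0.19, adjusted p = 0.0095), and SOX11, a SOX family factor, fell by 0.86 in PR-A K388R cells and by 2.34 in WT PR-A cells (difference 1.48 ± 0.18, adjusted p = 0.00663). CYP1B1, an estrogen and xenobiotic hydroxylase, fell by 0.76 in PR-A K388R cells, with 9.08 and 8.83 against 9.77 and 9.65, and had 0.38 in WT PR-A cells (difference -1.13 ± 0.22, adjusted p = 0.0395). In PR-A K388R cells SOX11 and CYP1B1 were called on 1 of 3 and 1 of 4 probe sets, all of which fell there. Annexin A1 (ANXA1), CEBPD and ALDH1A3, which the study names, were not called in PR-A K388R cells (-0.07, 0.60 and 0.58) and rose by 2.48, 2.43 and 2.18 in WT PR-A cells, with differences of -2.55, -1.83 and -1.60 (adjusted p = 0.00463, 0.00651 and 0.00704). The study singled out these 3 genes on these samples as raised by SUMOylated PR-A, so their differences are not independent evidence. These 3 differences and those of TRAF5, S100P, PLLP and SOX11 were called without any single array. That of HDAC9 was lost without WT PR-A vehicle replicate 1, and those of DPYSL2, SRGN, GREB1 and CYP1B1 were lost without 4, 6, 8 and 9 of the 10 arrays taken singly, at values between -2.21 and -0.87.

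**Figure D5:**
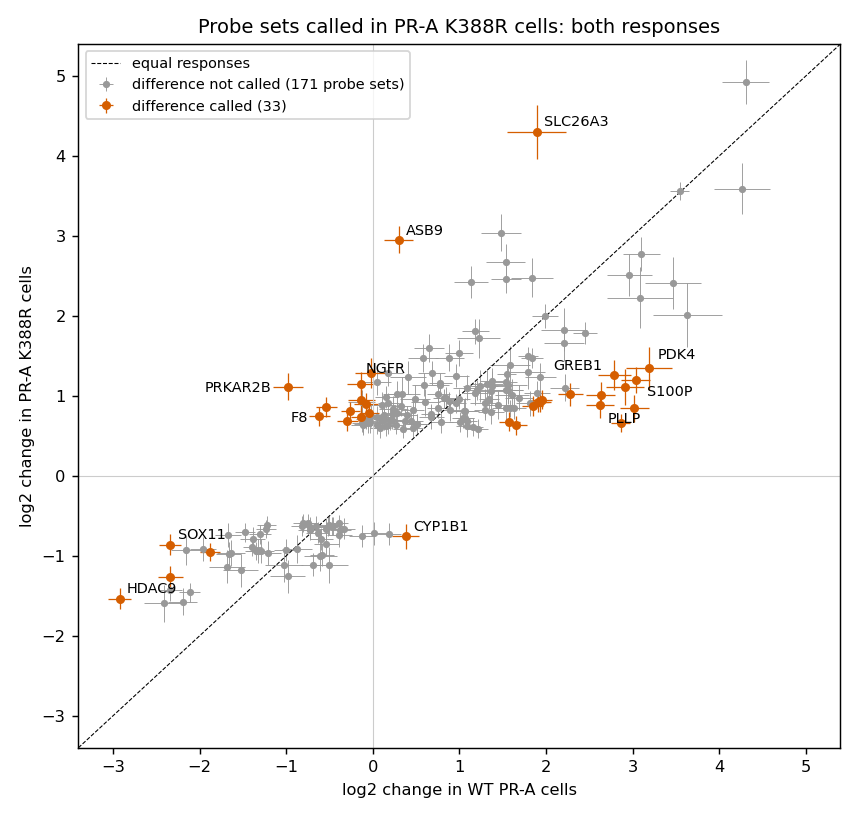
Log2 change with R5020 in PR-A K388R cells (vertical axis) against that in WT PR-A cells (horizontal axis) for the 204 called probe sets of PR-A K388R cells, with bars of 1 SE and a dashed line at equal responses. The 33 orange points were called for the difference of the responses, with ASB9 and SLC26A3 above the line, S100P, PDK4 and PLLP below it, and PRKAR2B and F8 in the quadrant of opposite changes.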

How the data were processed

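Expression in T47D-derived lines was measured on Affymetrix U133 Plus 2 arrays. Each array has a column of deposited log2 signals. The authors' normalization was run in Partek Genomics Suite, and neither its method nor the background correction is given in the sources used here. Culture in DMEM and charcoal-stripped serum and extraction with PicoPure stand in the labels, but MEM, FBS and RNAeasy in the study's methods. The table used holds 16376 probe sets, those whose identifiers sort first: 12547 with 1 gene symbol in GEO's platform annotation, 457 with several and 3372 not listed. Arrays have no read depth, and their number limits the precision.

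Groups came from the labels. A limma model (version 3.58.1, in R 4.3.3) took the 10 arrays together, with a mean for each group and the replicate number as a block: replicate 2 less replicate 1, summed over the groups, is 0 for every probe set (largest 3e-04), so the replicate number had been removed beforehand and 4 residual degrees of freedom are left. The prior had 5.62. Over single pairs of groups the sums leave no independent check of pairing (r = -0.0682 for PR-A K388R R5020 with vehicle). Contrasts were moderated with eBayes. P-values of the whole table were adjusted together (Benjamini-Hochberg), and calls needed 0.05 and a 1.5-fold change, as in the study's methods. The fit was tested on simulated data.

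For gene lists, the probe set with the highest mean stood for a gene. The part analysed, its genes and its lists were chosen with earlier results of these data known. Named were the 15 largest rises and falls, up to 10 genes a direction called for the difference of the responses, up to 4 called members a direction and 3 bright uncalled members of a list, genes the study names, genes called in opposite directions, and markers. CDK1 (second probe set), FXYD3, BATF, ULK2, LOC285847, ERVK13-1, F3, BCL6, ZBTB16, SCNN1B and genes not called in the target list were named after their values were seen. Promoters are from RefSeq, matched by gene identifier. Figures were drawn with Python 3.11.15. Alternatives are given at the end.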

Additional observations from a re-analysis of the deposited data

Results flagged for a closer look

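The difference of the R5020 responses between the lines, PR-A K388R minus WT PR-A, was called by its own test in limma for 33 of the probe sets chosen by the naming rule, and for CDK1, FXYD3 and BATF, whose differences of 0.83, 0.98 and 1.08 were named after their values were seen. Genes with a higher response in PR-A K388R cells, or a smaller fall, were ASB9 (2.65), SLC26A3 (2.41), PRKAR2B (2.10), SOX11 (1.48), KIAA0513 (1.40), HDAC9 (1.39), F8 (1.36), PGC (1.30), NGFR (1.29), RAPGEF5 (1.08), SEMA3C on its brighter probe set (1.07), RRM2 (0.98) and NDC80 (0.87). A lower response was measured for ANXA1 (-2.55), TRAF5 (-2.20), PDK4 (-1.84), S100P (-1.84), CEBPD (-1.83), SRGN (-1.80), MT1H (-1.80), PLLP (-1.74), DPYSL2 (-1.62), ALDH1A3 (-1.60), MT1X (-1.57), GREB1 (-1.53), DUSP1 (-1.41), MS4A15 (-1.26), CYP1B1 (-1.13), the amino acid transporter gene SLC7A5 (-1.09), JAK2 (-1.03), the acyl-CoA synthetase gene ACSL1 (-1.0004), RGS10 (-0.77) and the desaturase gene SCD (-0.76). MS4A15, a membrane protein of the MS4A family, had 5.47 and 5.33 with R5020 and 4.25 and 4.51 with vehicle in PR-A K388R cells, a rise of 1.02, against 2.28 in WT PR-A cells. JAK2 rose by 0.63 in PR-A K388R cells and by 1.66 in WT PR-A cells. The differences of JAK2, SLC7A5 and ACSL1 each lost their calls in 7 of the 10 analyses without 1 array and that of MS4A15 in 6 of 10. Those of SCD and RGS10 were lost without any 1 of the 10 arrays, at values between -0.87 and -0.67. That of SEMA3C was lost in most of these analyses and that of DUSP1 in some. The difference of SCD was also lost under quantile normalization. With 2 arrays a group, no outlying array could be tested.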

How the results depend on the processing

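The largest changes kept their calls under most alternatives. Called probe sets numbered 149 raised and 55 lowered, of which 94 and 39 were called the same way in WT PR-A cells and 33 differed between the lines. With no replicate block, which counts 1 degree of freedom too many, they were 177, 79, 162 and 73, and an intensity trend gave 66 differing. Unmoderated contrasts left 2 raised, 0 lowered, 2 shared and 0 differing, with 4 degrees of freedom alone. Requiring 2-fold changes left 66, 13, 56 and 13, and p-values without adjustment 234, 127, 218 and 146. With the compared groups' arrays alone, 105 were lowered. Leaving out 1 array gave 39 to 154 raised, 9 to 64 lowered, 42 to 136 shared and 4 to 25 differing. Of the 149 raised and 55 lowered, 25 and 7 were called without each PR-A K388R array in turn. Quantile normalization, centring on medians, leaving out the 40% dimmest probe sets and counting gene symbols moved no count by over 1.5 times. Of 82 named and called probe sets, 75 kept their calls under quantile normalization and 79 under centring, and 0 reversed in any alternative. The normalization used before deposit, 2 arrays a group and the absent PGR probe set limit these results, and dim probe sets such as SLC26A3 with vehicle have uncertain folds.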

Other observations

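Interferon-stimulated genes gave no call in PR-A K388R cells, but in the normalized values their level differed between the replicates of every group. The mean log2 signal of the 21 measured genes was 6.91 and 5.99 in the R5020 arrays and 7.11 and 6.16 in the vehicle arrays of PR-A K388R cells, replicate 1 before replicate 2. In WT PR-A cells it was 7.20 and 8.55 with R5020 and 8.51 and 9.56 with vehicle, and in T47D-Y cells 6.47 and 5.93. Replicate 2 thus lay below replicate 1 in PR-A K388R and T47D-Y cells and above it in WT PR-A cells. Because the replicate number had been removed beforehand, a lower replicate 2 in some groups has to be balanced by a higher one elsewhere. Opposite directions among the groups were therefore forced. The replicate differences before that step are unknown, so no conclusion about the lines is drawn from them. The antiviral genes OAS2 and MX1 changed by -0.92 and -0.63 in PR-A K388R cells and by -2.40 and -1.79 in WT PR-A cells on the brightest probe sets, and neither was called there in either line. The part of the replicate level in these values was not tested.

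Among raised probe sets the T47D-Y mean lay between the vehicle and R5020 means of PR-A K388R cells in 84 of 149 cases and beyond the R5020 mean in 10. Among lowered probe sets it lay between in 22 of 55 and beyond in 4. The share over all probe sets was not computed, and called probe sets were chosen for a wide gap between vehicle and R5020. These counts are therefore a description and no result about T47D-Y cells. The adhesion molecule gene ALCAM, raised by 1.23 ± 0.20 in PR-A K388R cells (11.27 and 11.34 with R5020, 10.23 and 9.92 with vehicle), had 4.76 and 5.15 in WT PR-A cells given vehicle and 6.11 and 6.45 in T47D-Y cells. The call of ALCAM was lost without any 1 of the 4 PR-A K388R arrays. The steroid-responsive long noncoding RNA gene DSCAM-AS1 fell by 0.94 ± 0.11 (10.38 and 10.37 against 11.29 and 11.34) and kept its call without any single PR-A K388R array.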
